A study of Rattus norvegicus with 8 samples.

Results

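The amino acid transporter families described here are the genes whose symbols belong to the solute carrier families Slc1a, Slc3a, Slc6a, Slc7a, Slc36a, Slc38a and Slc43a, without the creatine carrier Slc6a8. They were chosen by symbol from the gene annotation of the array platform, using probe sets with a single symbol, and the choice used no difference between groups. The rule found 52 genes of the 14217 named genes on the array, and 70 of the 31042 tested probe sets. A gene with more than 1 probe set is represented by its brightest, by the mean of the 8 arrays. One gene met the symbol rule without being a carrier, Slc7a6os, which neighbours Slc7a6. No filter on low signal was applied, so all 52 genes were tested. The arrays measured testis RNA of male Fischer 344 rat fetuses at gestational day 20. In 4 samples (DBP) the dams had received 50 mg/kg dibutyl phthalate in corn oil, and in 4 samples (vehicle) corn oil alone. Dams were gavaged daily from day 12 to day 20 of gestation, and testes were taken 6 h after the last dose. The question was which transcripts of the fetal testis differ at this dose of a plasticizer known for lowering androgen production by the fetal testis at higher doses.

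Amino acids cross cell membranes through carriers that differ in substrate, in coupling to sodium or protons, and in whether they take up or exchange. Several Slc7a proteins are light chains that reach the cell surface only when bound to a heavy chain, Slc3a2 (4F2hc, CD98) or Slc3a1 (rBAT), and exchange 1 amino acid for another. Slc38a and Slc1a carriers bring in amino acids with sodium and so set the pools that exchangers use, and Slc6a carriers take up GABA, taurine, glycine, proline and monoamines. In testis, such carriers feed protein synthesis, glutathione synthesis and growth of the seminiferous cords.

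Signals are log2 values made by the authors with RMA, a method that corrects background, equalises the arrays and combines the probes of a probe set. Array medians lay between 6.08 and 6.13, and correlations across probe sets between arrays between 0.991 and 0.998. Spiked-in poly-A control transcripts of bacterial origin averaged 4.75 and 4.73 on DBP replicates 3 and 4, against 7.24 and 6.79 on DBP replicates 1 and 2 and 6.54 to 6.85 on the vehicle arrays. Results are therefore also given for DBP replicates 1 and 2 alone against vehicle. The RNA integrity number was 8.6 to 8.8. Of 8 defining testis markers 5 were measured, Amh, Dhh, Insl3, Star and Cyp17a1, with mean log2 signals of 8.99 to 12.64, while Sox9, Dazl and Mael were not analysed here. Whether each sample is from its own dam or litter is not in the labels, so a p-value here reflects no more than the spread among these 8 samples, and precision is limited by how few arrays there are. A signal depends on the probes as well as on the transcript, so levels are compared between groups and not between genes.

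Of the 52 genes, 2 fell after DBP and 0 rose, counting a call where limma gave an adjusted p (Benjamini-Hochberg, over all probe sets) under 0.05. Both are light chains of heteromeric exchangers, Slc7a8 (LAT2) and Slc7a7 (y+LAT1). Calls were made for 3.85% of these genes, against 1.22% of all named genes, of which 0.626% were lower and 0.598% higher, and for 2 of the 70 probe sets, against 1.07% of all probe sets. Before adjustment, 12 of the 52 genes had a p under 0.05 (23.1%), 7 of them higher and 5 lower, where 19.1% of all genes did, 11.3% higher and 7.84% lower, so the share is near the background. The groups did not overlap for 9 of the 52 genes, 4 lower and 5 higher after DBP (17.3%), where 12.9% of all genes did not, 5.56% lower and 7.31% higher. Marker sums of 2 other lists were also apart (linear signal, 0 past the threshold in either list). The 8 markers of mesonephric duct and epididymis summed to 1471 to 1668 on DBP arrays and 1331 to 1411 on vehicle arrays. The 3 germ cell markers measured of 8 listed summed to 1072 to 1155 on DBP arrays and 954 to 1047 on vehicle arrays. By gene, 6 of the 8 duct markers were numerically higher and 2 lower. Of the 3 germ cell markers 2 were higher and 1 lower. The brightest marker of each list, Krt8 (0.16) and Sycp3 (0.31), weighs most in its sum. The part of these lists in these counts was not tested. The median log2 change of the 52 genes was 0.04 and that of all genes 0.02. The probe set count behind these shares was 331 over all 8 arrays. It was 114, 122, 82 and 118 without vehicle replicates 1, 2, 3 and 4, and 606 and 220 without DBP replicates 2 and 3.

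**Figure D1:**
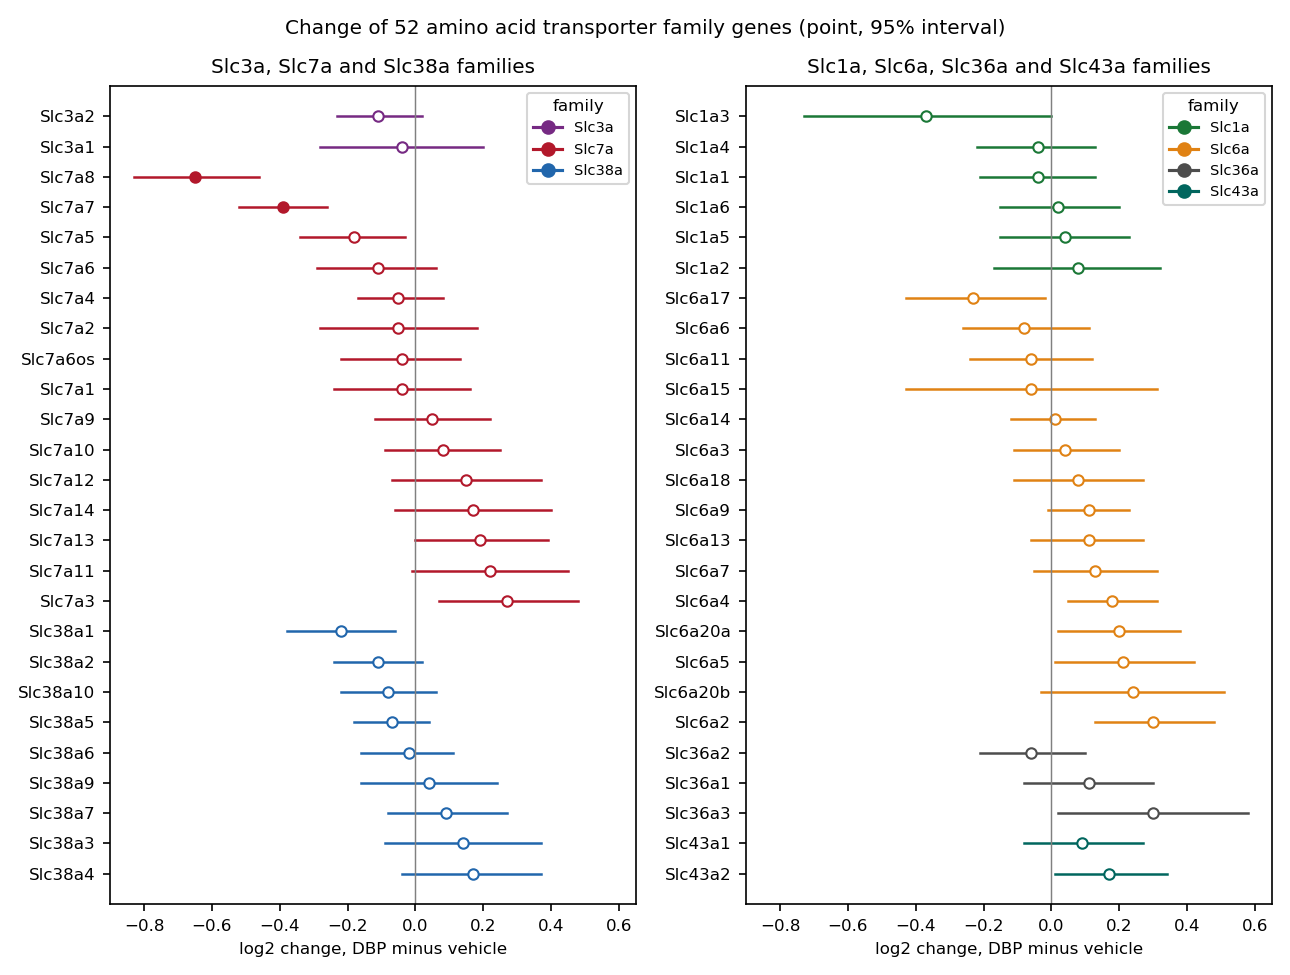
The plot gives the log2 change (DBP minus vehicle, horizontal axis) of each of the 52 genes, with a 95% interval of the limma fit, n = 4 arrays per group and filled points for adjusted p under 0.05. The 2 filled points are Slc7a8 at -0.65 and Slc7a7 at -0.39, and the other 50 genes lie between -0.37 and 0.30.

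Slc7a8, the exchanger LAT2 for large and small neutral amino acids and thyroid hormones, gave the largest change of the 52. Its log2 signal was 7.29, 7.69, 7.42 and 7.48 in DBP replicates 1 to 4, against 8.03, 8.12, 8.13 and 8.19 in vehicle replicates 1 to 4. Every DBP array lay below every vehicle array, with DBP replicate 1 lowest. The mean was 7.47 ± 0.17 after DBP and 8.12 ± 0.066 in vehicle (SD, n = 4 each). This is a change of -0.65 ± 0.084 (SE; 95% interval -0.83 to -0.46), or 1.57-fold lower (limma adjusted p = 0.00746). Without limma's moderation of the variances the call ended (adjusted p = 0.0859). Both pairs of DBP arrays gave a similar value, -0.63 in replicates 1 and 2 (adjusted p = 0.0273) and -0.67 in replicates 3 and 4 (adjusted p = 0.00491). Summed marker signals overlapped between the groups for Leydig cells (24186 to 27340 on DBP arrays, 25301 to 26852 on vehicle arrays, 9 of 9 measured) and Sertoli cells (14182 to 16397 on DBP arrays, 14462 to 15340 on vehicle arrays, 8 of 10 measured), with 0 markers past the threshold in either list. Such sums follow the brightest markers. Of the 9 Leydig markers 6 were numerically lower and 3 higher. At an unadjusted p under 0.05 were 5 (55.6%, against 19.1% of all genes), 4 lower and 1 higher. The groups did not overlap for 4 of the 9 (44.4%, against 12.9% of all genes). Lower without overlap were Vsnl1 (-0.70), the hormone Insl3 (-0.34) and the luteinizing hormone receptor Lhcgr (-0.21), and higher without overlap was Hsd3b1 (0.17). In DBP replicates 1 and 2 alone Insl3 (-0.40, adjusted p = 0.0499) and Vsnl1 (-0.65, adjusted p = 0.0221) passed, where 1.67% of all genes were called. In replicates 3 and 4 alone Insl3 passed (-0.27, limma adjusted p = 0.0395) and Vsnl1 did not (-0.75, limma adjusted p = 0.0598), where 12.8% were called. Of the 8 Sertoli markers 5 were numerically higher and 3 lower. At an unadjusted p under 0.05 were 5 (62.5%, against 19.1% of all genes), 4 higher and 1 lower. The groups did not overlap for 4 of the 8 (50%, against 12.9% of all genes). Inhbb (-0.35) was lower without overlap, and Aard (0.24), Gata1 (0.36) and Clu (0.25) were higher without overlap. Gata1 was the 1 Sertoli marker past the threshold in DBP replicates 1 and 2 alone (0.59, limma adjusted p = 0.0168), with 0.13 in replicates 3 and 4. Most erythroid markers, given below, were also lower in replicates 3 and 4 than in replicates 1 and 2. Which cells the Gata1 signal comes from was not tested. In replicates 3 and 4 alone Inhbb, Aard and Cst12 passed. The part of Leydig and Sertoli cells in the Slc7a8 and Slc7a7 values was not tested. In whole testis RNA, fewer cells that express a gene and less of its RNA per cell cannot be told apart.

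Slc7a7, the exchanger y+LAT1, releases cationic amino acids such as arginine and lysine in exchange for neutral amino acids and sodium, and is best known from epithelia and macrophages. Signals were 6.45, 6.38, 6.46 and 6.40 in DBP replicates 1 to 4 and 6.92, 6.77, 6.75 and 6.82 in vehicle replicates 1 to 4. The groups did not overlap, and the DBP arrays lay close together. Its change was -0.39 ± 0.058 (SE; 95% interval -0.52 to -0.26; 1.31-fold lower, limma adjusted p = 0.0132), with -0.40 in DBP replicates 1 and 2 (adjusted p = 0.0286) and -0.38 in replicates 3 and 4 (adjusted p = 0.0166). The call ended without vehicle replicate 1 (-0.36, adjusted p = 0.0516) and without vehicle replicate 4 (-0.39, adjusted p = 0.0572). The summed linear signal of 10 macrophage markers measured of 10 listed was 1188 to 1384 on DBP arrays and 1145 to 1212 on vehicle arrays, with 9 higher, 1 lower and 0 past the threshold. Fcer1g (0.27, limma unadjusted p = 0.00173) and Cd74 (0.24, limma unadjusted p = 0.00399) were higher without overlap. The part of macrophages in the Slc7a7 values was not tested.

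Slc7a7 and Slc7a8 are both on rat chromosome 15, and their promoters are shown because these are the genes of the families that fell. The sequences are those of RefSeq (build GRCr8), 300 bases from before to just after the start given there, on the gene's own strand, with capitals for matches to any of 4 motifs. For Slc7a8 the stretch is chr15:32212666-32212965 and for Slc7a7 chr15:31835634-31835933, both on the minus strand.
Slc7a8: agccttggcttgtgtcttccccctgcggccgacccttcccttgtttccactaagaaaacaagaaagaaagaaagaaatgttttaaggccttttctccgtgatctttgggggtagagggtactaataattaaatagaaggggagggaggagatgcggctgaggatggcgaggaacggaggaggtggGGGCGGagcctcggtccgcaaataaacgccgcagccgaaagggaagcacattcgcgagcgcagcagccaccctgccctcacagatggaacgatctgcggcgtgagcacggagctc
Slc7a7: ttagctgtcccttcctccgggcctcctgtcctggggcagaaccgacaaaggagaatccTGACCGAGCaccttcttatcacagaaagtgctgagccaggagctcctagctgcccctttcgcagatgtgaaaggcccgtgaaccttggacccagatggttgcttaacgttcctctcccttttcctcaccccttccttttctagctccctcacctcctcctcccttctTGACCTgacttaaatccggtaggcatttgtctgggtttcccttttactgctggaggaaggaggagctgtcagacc
The motifs searched on both strands were TGATGNAA (the core of amino acid response elements bound by ATF4 with C/EBP partners), TGACNNNGC (the antioxidant response element), AGGTCA (a site of nuclear receptors) and GGGCGG (a GC box). The capitals in Slc7a8 mark 1 GC box, and those in Slc7a7 mark 1 TGACNNNGC match and, nearer the start, 1 AGGTCA match read on the opposite strand, with no overlap of the marked matches. Of 33469 promoters of this length, 3.98% held TGATGNAA, 12.1% TGACNNNGC, 16.2% AGGTCA and 33.1% GGGCGG. Promoters were given for 40 of the 52 genes, 45 in all, of which 3 held TGATGNAA (those of Slc1a4, Slc38a1 and Slc7a1), 8 TGACNNNGC, 6 AGGTCA and 21 GGGCGG. No motif was found in both the Slc7a7 and the Slc7a8 stretch.

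RefSeq places 15 protein-coding genes between Slc7a7 and Slc7a8, of which 12 were measured. Among them are Mmp14, a membrane-bound matrix protease, Prmt5, an arginine methyltransferase, Psmb5, a proteasome subunit, and Cebpe, a C/EBP factor of myeloid cells. None of the 12 passed by limma's test, and 1 had an unadjusted p under 0.05, Ajuba, a LIM-domain scaffold protein (0.17, 95% interval 0.01 to 0.33). Their log2 changes ran from -0.13 (Mmp14) to 0.17, with a median of 0.04, and 8 were higher and 4 lower. Of the 5 nearest genes on the far side of each exchanger 6 were measured in all, of which 0 passed and 0 had an unadjusted p under 0.05. The neighbourhood was looked up after the changes of both exchangers were known.

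**Figure D2:**
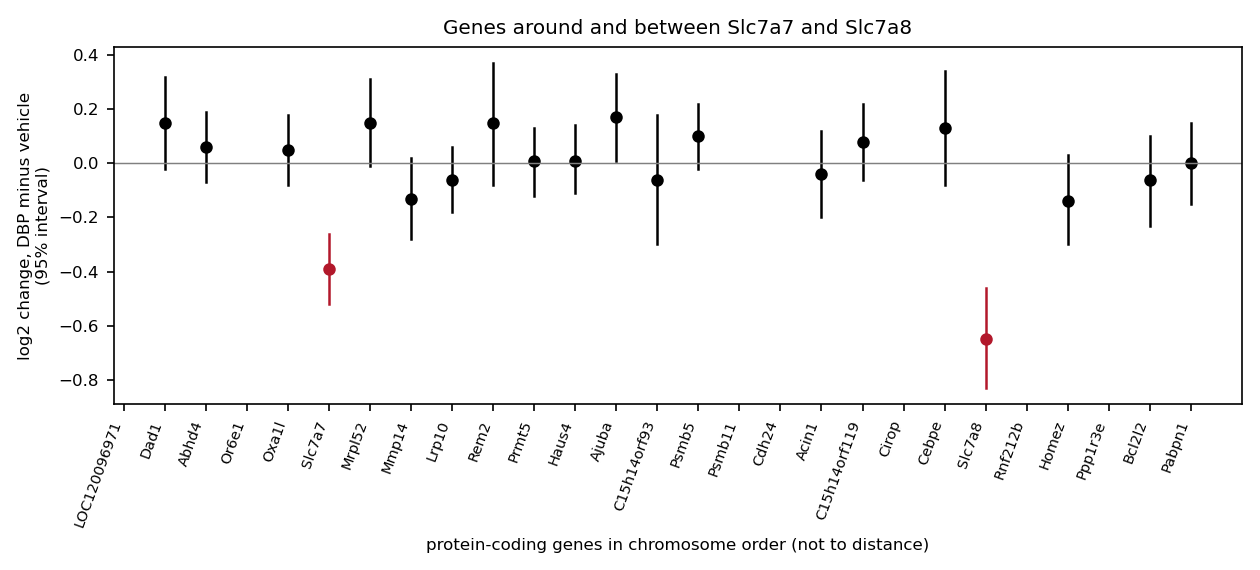
The plot gives the log2 change (DBP minus vehicle, vertical axis, 95% interval, n = 4 arrays per group) of protein-coding genes in chromosome order, with Slc7a7 and Slc7a8 in red and genes without a point not measured. The intervals of Slc7a7 and Slc7a8 lie below -0.26 and -0.46, and those of the measured neighbours reach no lower than -0.30.

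The heavy chains that carry the light chains to the surface did not pass. Slc3a2, partner of both Slc7a7 and Slc7a8, had signals of 9.91, 10.02, 10 and 9.98 in DBP replicates 1 to 4, against 10.06, 10.02, 10.10 and 10.15 in vehicle replicates 1 to 4. The groups met at 10.02. Its change was -0.11, with a 95% interval of -0.23 to 0.02 (adjusted p = 0.343). Slc3a1, partner of the cystine exchanger Slc7a9 in kidney, gave -0.04 (-0.28 to 0.20) at a signal of 4.46 ± 0.23 after DBP and 4.5 ± 0.12 in vehicle (SD, n = 4 per group), and Slc7a9 itself gave 0.05 (-0.12 to 0.22).

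Of the 9 light chains measured, the 2 that fell were the only ones past the threshold. Slc7a5 (LAT1), the main importer of leucine and other large neutral amino acids in growing cells, had 7.59, 7.75, 7.84 and 7.67 in DBP replicates 1 to 4 and 7.86, 7.83, 7.88 and 8.02 in vehicle replicates 1 to 4. DBP replicate 3 lay just above the lowest vehicle array, and the change of -0.18 (95% interval -0.34 to -0.03) missed the threshold (unadjusted p = 0.0255, adjusted p = 0.22). Slc7a6 (y+LAT2), the close relative of Slc7a7, had 8.43, 8.31, 8.16 and 8.09 in DBP replicates 1 to 4 and 8.37, 8.30, 8.33 and 8.44 in vehicle replicates 1 to 4. Only DBP replicates 3 and 4 lay below the vehicle range (change -0.11, -0.29 to 0.06). DBP replicates 1 and 2 alone gave 0.01, and replicates 3 and 4 alone gave -0.23. Slc7a11 (xCT), which imports cystine for glutathione, had 5.13, 5.11, 4.97 and 4.82 in DBP replicates 1 to 4, against 5.0, 4.88, 4.59 and 4.68 in vehicle replicates 1 to 4. These ranges overlapped, and the change was 0.22 (-0.01 to 0.45; adjusted p = 0.285). Slc7a10 (Asc-1), a carrier of small neutral and D-amino acids, gave 0.08 (-0.09 to 0.25), Slc7a12 0.15 (-0.07 to 0.37) and Slc7a13, a partner of Slc3a1 in mouse kidney, 0.19 (adjusted p = 0.28). For Slc7a6os the change was -0.04 (-0.22 to 0.13).

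The cationic amino acid carriers of the Slc7a family, which work without a heavy chain, gave 0 calls by limma among 5 genes, 1 of them with an unadjusted p under 0.05. Slc7a3 (CAT-3) had 5.72, 5.76, 5.70 and 6.0 in DBP replicates 1 to 4 and 5.67, 5.32, 5.55 and 5.54 in vehicle replicates 1 to 4. The groups lay close without overlapping, and the change of 0.27 ± 0.091 (SE; 95% interval 0.07 to 0.48) had an adjusted p of 0.168. Slc7a1 (CAT-1), the widespread arginine and lysine importer, averaged 7.83 ± 0.19 after DBP and 7.87 ± 0.044 in vehicle (SD, n = 4 per group; change -0.04, -0.24 to 0.16). Slc7a2 (-0.05), Slc7a4 (-0.05) and Slc7a14 (0.17), the last a lysosomal relative, did not pass either.

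Of the 15 Slc6a genes, 11 were numerically higher (73.3%) and 4 lower after DBP, and 0 passed. Over all genes 56.8% were higher, and 68.7% of those with a mean below the median over all named genes. Of these 5 reached an unadjusted p under 0.05, of which 4 were higher and 1 was lower (33.3%, against 19.1% of all genes). The median change was 0.11, against 0.02 for all genes. Most of these genes had dim signals, and only Slc6a6, Slc6a9 and Slc6a17 had means above 7.41, the median over all named genes.

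Among the monoamine carriers, Slc6a2, which takes up noradrenaline in sympathetic neurons and chromaffin cells, had 4.22, 4.19, 4.27 and 4.41 in DBP replicates 1 to 4, against 3.90, 3.82, 4.09 and 4.06 in vehicle replicates 1 to 4. All DBP arrays were above all vehicle arrays (change 0.30 ± 0.078, SE; adjusted p = 0.102). Slc6a4, the serotonin carrier, had 7.34, 7.29, 7.39 and 7.38 in DBP replicates 1 to 4 and 7.17, 7.23, 7.21 and 7.06 in vehicle replicates 1 to 4, again without overlap (0.18 ± 0.059; adjusted p = 0.162). Slc6a3, the dopamine carrier, gave 0.04 (-0.11 to 0.20). The summed linear signal of 9 sympathetic and adrenal medulla markers measured of 10 listed was 495 to 543 on DBP arrays and 512 to 530 on vehicle arrays, with 0 past the threshold. By gene, 7 of the 9 were numerically higher and 2 lower (Chga, -0.34, and Ddc, -0.11). Th (0.26) and Slc18a2 (0.25) were higher without overlap, and Dbh gave 0.22 (unadjusted p = 0.027). Their part in the Slc6a2 values was not tested.

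Slc6a6 (TauT), which takes up taurine, gave different answers from its 2 probe sets. The representing one had 7.79, 8.10, 7.73 and 7.99 in DBP replicates 1 to 4, against 7.95, 8.01, 8.0 and 7.95 in vehicle replicates 1 to 4. Its change was -0.08 (95% interval -0.26 to 0.11). The second, dimmer probe set had 5.55, 5.0, 5.75 and 5.91 in DBP replicates 1 to 4 and 6.39, 6.35, 6.80 and 6.21 in vehicle replicates 1 to 4. There the groups did not overlap, and the change was -0.89 ± 0.19 (SE; -1.30 to -0.47), the largest of all 70 probe sets, with a limma adjusted p of 0.056. DBP replicates 1 and 2 alone gave -1.16 (adjusted p = 0.0219), and replicates 3 and 4 alone gave -0.61 (adjusted p = 0.0341). Averaged over both probe sets, Slc6a6 passed (-0.48, adjusted p = 0.0419). Which transcript forms each probe set reads was not tested. The GABA carriers Slc6a11 (GAT-3) and Slc6a13 (GAT-2) gave -0.06 (-0.24 to 0.12) and 0.11 (-0.06 to 0.27).

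The glycine, proline and neutral amino acid carriers of Slc6a numbered 9, with 7 numerically higher, 2 lower, 0 past the threshold and 3 with an unadjusted p under 0.05. Slc6a9 (GlyT1), the glycine importer, is also known from red cell precursors. It had 7.72, 7.71, 7.82 and 7.72 in DBP replicates 1 to 4 and 7.64, 7.67, 7.62 and 7.61 in vehicle replicates 1 to 4 (change 0.11, -0.01 to 0.23; adjusted p = 0.312). The groups did not overlap, and its 2 dimmer probe sets gave -0.15 and -0.02. Erythroid markers, 9 measured of 10 listed with 0 past the threshold over all 8 arrays and 8 higher, summed to 24746, 24894, 20645 and 21981 on DBP replicates 1 to 4, against 20305 to 22875 on vehicle arrays. In DBP replicates 1 and 2 alone 4 of the 9 passed, Slc4a1 (1.26), Alas2 (0.70), Hemgn (0.63) and Klf1 (0.53), where 1.67% of all genes were called. In replicates 3 and 4 alone 0 passed. Replicates 3 and 4 were both below replicates 1 and 2 for 8 of the 9 (88.9%), where the share over all genes was 20.1%. The part of erythroid cells in the Slc6a9 values was not tested. Slc6a5 (GlyT2), the neuronal glycine carrier, had 4.67, 4.64, 4.94 and 4.58 in DBP replicates 1 to 4, against 4.38, 4.41, 4.52 and 4.67 in vehicle replicates 1 to 4 (0.21; adjusted p = 0.26). The ranges overlapped.

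Slc6a20a, which takes up proline and other imino acids, had 6.36, 6.38, 6.59 and 6.58 in DBP replicates 1 to 4 and 6.19, 6.17, 6.37 and 6.38 in vehicle replicates 1 to 4. DBP replicates 3 and 4 lay above all vehicle arrays and replicates 1 and 2 within the vehicle range (0.20; adjusted p = 0.235). Its close relative Slc6a20b showed the same split more widely, with 3.61, 3.59, 4.05 and 4.11 in DBP replicates 1 to 4 against 3.50, 3.54, 3.66 and 3.71 in vehicle replicates 1 to 4. Slc6a17 (NTT4), a carrier of synaptic vesicles, had 7.57, 7.78, 7.39 and 7.41 in DBP replicates 1 to 4 and 7.65, 7.86, 7.68 and 7.86 in vehicle replicates 1 to 4 (-0.23; adjusted p = 0.25). Its 4 dimmer probe sets gave 0.07 to 0.18, the opposite direction. The rest did not pass: Slc6a7, the brain proline carrier, gave 0.13, Slc6a14 0.01, Slc6a15 -0.06 and Slc6a18 0.08.

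The Slc1a family holds sodium-driven importers of glutamate and aspartate and the neutral exchangers Slc1a4 (ASCT1) and Slc1a5 (ASCT2, a glutamine carrier), and 0 of its 6 genes passed by limma, with 0 at an unadjusted p under 0.05. Slc1a3 (GLAST) had 6.76, 7.07, 6.35 and 6.15 in DBP replicates 1 to 4, against 6.91, 7.0, 6.92 and 6.96 in vehicle replicates 1 to 4. DBP replicates 3 and 4 were far below the vehicle arrays and replicate 2 above them. The change over all arrays, -0.37 (95% interval -0.73 to 0; adjusted p = 0.274), thus combined -0.03 in DBP replicates 1 and 2 with -0.70 in replicates 3 and 4 (adjusted p = 0.00549 in that pair). Its 2 dimmer probe sets gave -0.07 and -0.05. Slc1a5 averaged 6.75 ± 0.14 after DBP and 6.71 ± 0.12 in vehicle (SD, n = 4 per group; change 0.04, -0.15 to 0.23), and Slc1a4 gave -0.04 (-0.22 to 0.13). For Slc1a1 (EAAC1) the change was -0.04, for Slc1a2 (GLT-1) 0.08 and for Slc1a6 (EAAT4) 0.02.

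Slc38a genes encode sodium-coupled carriers of glutamine, alanine and other small neutral amino acids, and 0 of 9 passed by limma, with 1 at an unadjusted p under 0.05. Slc38a1 (SNAT1), a glutamine importer, had 7.90, 7.95, 7.70 and 7.94 in DBP replicates 1 to 4 and 8.03, 8.12, 8.20 and 8.03 in vehicle replicates 1 to 4. Every DBP array lay below every vehicle array (-0.22 ± 0.073, SE; adjusted p = 0.166), and its dimmer probe sets gave -0.08 and 0.01. Slc38a2 (SNAT2), which cells raise when amino acids run short, had 10.11, 10.16, 9.98 and 10.01 in DBP replicates 1 to 4, against 10.17, 10.17, 10.21 and 10.14 in vehicle replicates 1 to 4 (-0.11, 95% interval -0.24 to 0.02; adjusted p = 0.357). DBP replicate 2 lay within the vehicle range and the other DBP arrays below it. Slc38a5 (SNAT5) averaged 7.92 ± 0.026 after DBP and 7.99 ± 0.012 in vehicle (SD, n = 4 per group), without overlap and with a change of -0.07. Slc38a4 (0.17), Slc38a3 (0.14), Slc38a7 (0.09), the lysosomal arginine sensor Slc38a9 (0.04), Slc38a6 (-0.02) and Slc38a10 (-0.08) had adjusted p-values from 0.356 to 0.867.

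The proton-coupled Slc36a carriers and the Slc43a facilitators gave 0 calls by limma among 5 genes, with 1 of each family at an unadjusted p under 0.05. Slc36a3 had 4.53, 4.54, 4.89 and 5.14 in DBP replicates 1 to 4, against 4.46, 4.43, 4.59 and 4.43 in vehicle replicates 1 to 4. Only DBP replicates 3 and 4 lay above the vehicle range (0.30; adjusted p = 0.252), and replicates 1 and 2 alone gave 0.06. Slc36a1 (PAT1), which moves small amino acids into the cytosol together with protons, had 5.19, 5.20, 5.55 and 5.22 in DBP replicates 1 to 4, against 5.07, 5.22, 5.17 and 5.26 in vehicle replicates 1 to 4. DBP replicate 3 alone lay above the vehicle range (0.11, adjusted p = 0.514), and Slc36a2 gave -0.06. Slc43a2 (LAT4), which lets out branched-chain amino acids, had 5.77, 5.79, 5.81 and 6.07 in DBP replicates 1 to 4 and 5.66, 5.75, 5.67 and 5.66 in vehicle replicates 1 to 4 (0.17; adjusted p = 0.252). These groups did not overlap, but its other probe set gave -0.23 (95% interval -0.41 to -0.05). Slc43a1 (LAT3), its relative, had 7.19, 7.19, 7.0 and 7.08 in DBP replicates 1 to 4 and 7.11, 7.09, 6.82 and 7.07 in vehicle replicates 1 to 4. These ranges overlapped (0.09, adjusted p = 0.544).

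**Figure D3:**
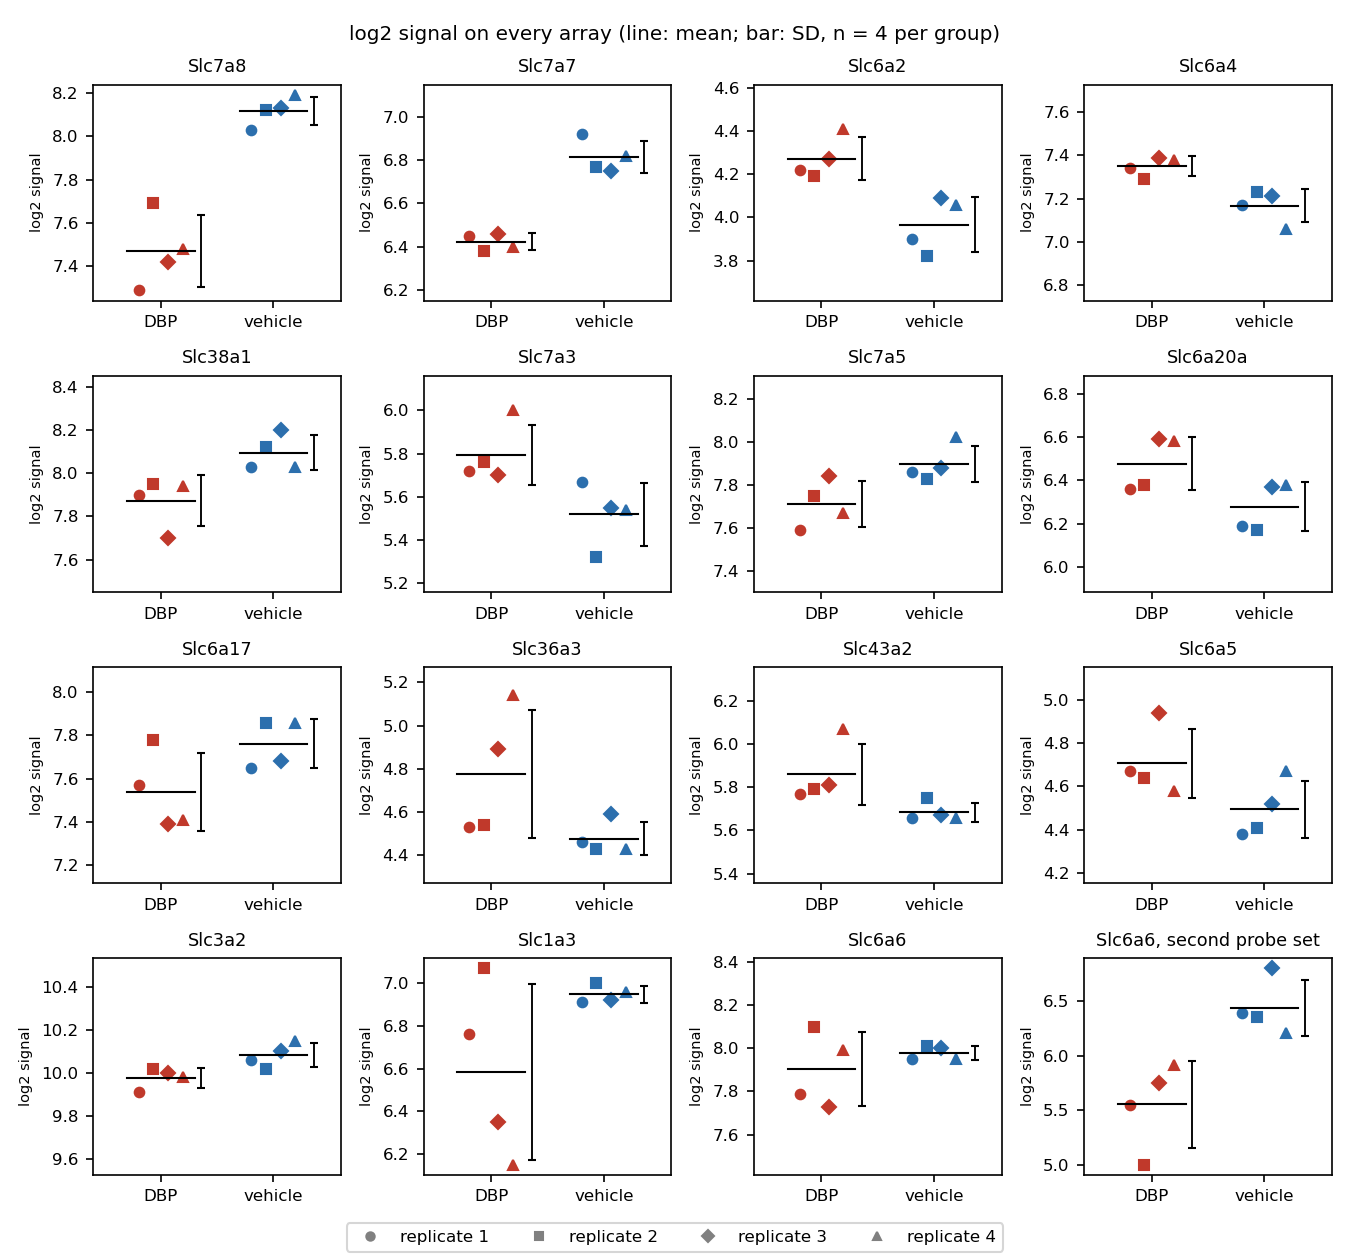
Each panel gives the log2 signal of a gene on every array (vertical axis), DBP at left and vehicle at right, with the mean as a line and the SD as a bar (n = 4 per group). The groups are apart for Slc7a8, Slc7a7, Slc6a2, Slc6a4, Slc38a1, Slc7a3, Slc43a2 and the second probe set of Slc6a6. DBP replicates 3 and 4 lie away from replicates 1 and 2 for Slc1a3, Slc36a3, Slc6a20a and Slc6a17, among others.

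Several probe sets were present for 11 of the 52 genes, with 18 probe sets beside the representing ones. Of these 18, 0 passed and 5 had an unadjusted p under 0.05, and their changes ran from -0.89 to 0.18. The rounded change had the sign of the representing probe set for 7 of the 18. The other probe set of Slc6a20a, at 0.0 after rounding, is not among these 7. Slc7a8 and Slc7a7 had a single probe set each, so their falls have no second reading on the array.

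**Figure D4:**
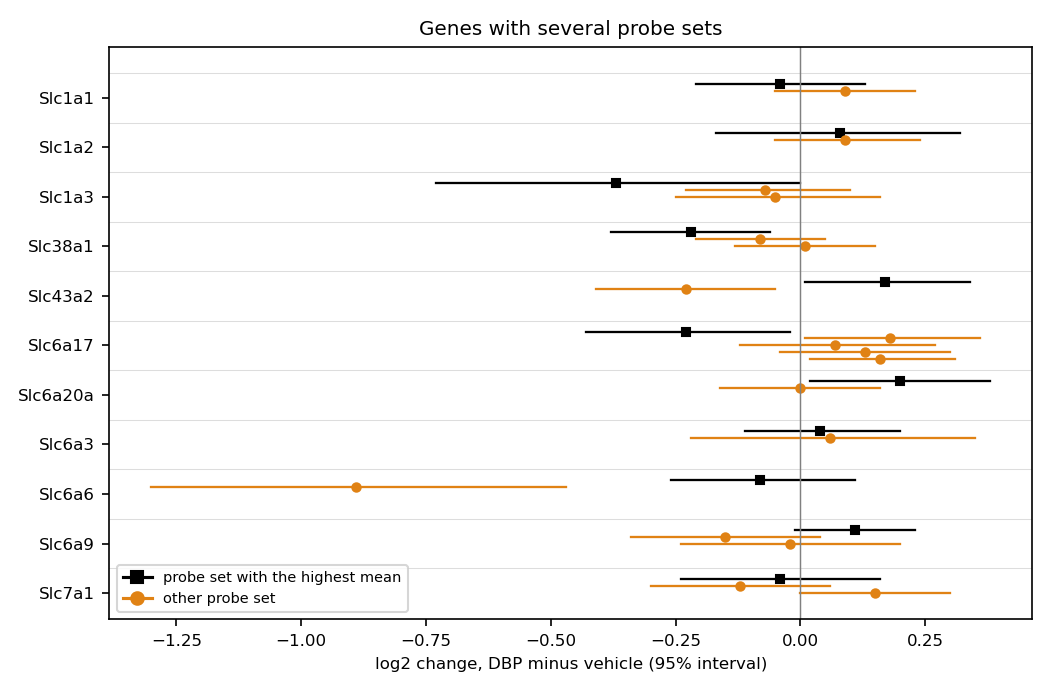
The plot gives the log2 change (DBP minus vehicle, horizontal axis, 95% interval, n = 4 arrays per group) of every probe set of the 11 genes with several, squares for the probe set with the highest mean and circles for others. The second probe set of Slc6a6 at -0.89 stands apart from its partner at -0.08, and those of Slc43a2 lie on opposite sides of 0.

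The DBP arrays with low spike-in signal differed from the other DBP arrays for many of these genes. DBP replicates 3 and 4 were both above replicates 1 and 2 for 14 of the 52 genes (26.9%) and both below for 13 (25%), where the shares over all genes were 22.2% and 20.1%. The 14 were all among the 39 members with a mean below 7.41, the median over all named genes. They are 35.9% of those 39, where the share was 30.8% of all genes below that signal and 13.7% of those above it. Against vehicle, replicates 3 and 4 alone gave 10 calls among the 52, where 12.8% of all genes were called, and replicates 1 and 2 alone gave 2, Slc7a7 and Slc7a8, where 1.67% were called. The other 8 calls of replicates 3 and 4 were Slc1a2, Slc1a3, Slc36a3, Slc6a2, Slc6a17, Slc6a20a, Slc6a20b and Slc7a12. The difference between the pairs of DBP arrays was 0.01 for Slc7a7 and -0.04 for Slc7a8, against -0.66 for Slc1a3, 0.48 for Slc36a3 and 0.48 for Slc6a20b.

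**Figure D5:**
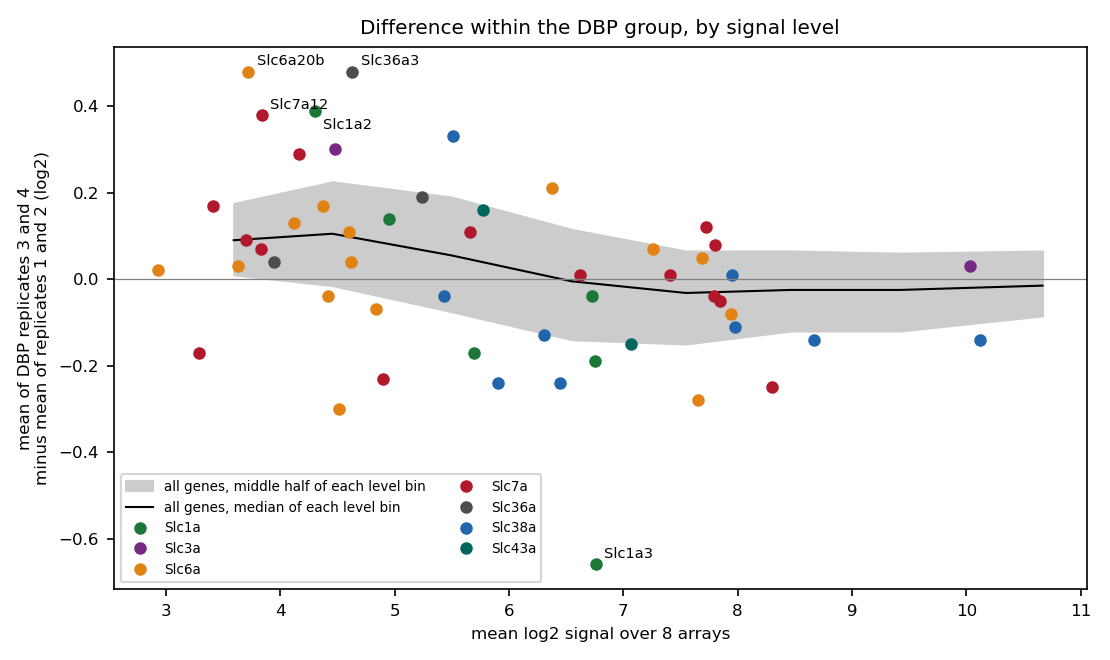
The plot gives the mean of DBP replicates 3 and 4 minus that of replicates 1 and 2 (log2, vertical axis) against the mean log2 signal over 8 arrays (horizontal axis) for the 52 genes, coloured by family, with the median of all named genes in bins of signal as a line and their quartiles as a grey band. The band lies mostly above 0 at low signal, and Slc1a3 at -0.66 is the point farthest from 0.

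The direction of the changes went with the signal. Of the 13 members with a mean above 7.41, 12 were numerically lower after DBP (92.3%) with a median change of -0.11, where 55.1% of all genes above that signal were lower. The exception was Slc6a9, by its representing probe set. Of the 39 dimmer members 28 were higher (71.8%), where 68.7% of all genes below it were. The 12 were Slc7a8, Slc7a5, Slc38a1, Slc38a2, Slc38a5, Slc38a10, Slc3a2, Slc6a6, Slc6a17, Slc7a1, Slc7a6 and Slc7a6os. All these directions are those of the representing probe sets. Among the 12, the dimmer probe sets of Slc6a17 gave 0.07 to 0.18 and that of Slc6a6 -0.89. Those of Slc7a1 gave -0.12 and 0.15, and those of Slc38a1 -0.08 and 0.01. With DBP replicates 1 and 2 alone the median change of the 13 was -0.08, and with replicates 3 and 4 alone -0.14. The division by signal was made after the changes were known.

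Other carriers of amino acids and peptides, from mitochondria, lysosomes and vesicles, gave 0 calls among 19 measured of 24 listed, with 4 at an unadjusted p under 0.05, 3 higher and 1 lower (21.1%, against 19.1% of all genes). Slc15a2 (PEPT2), the high-affinity peptide importer, had 6.59, 6.56, 6.30 and 6.52 in DBP replicates 1 to 4, against 6.15, 6.24, 6.02 and 6.13 in vehicle replicates 1 to 4. The groups did not overlap (0.36 ± 0.078, SE; adjusted p = 0.0629), and it passed in DBP replicates 1 and 2 alone (0.44, adjusted p = 0.0237). Slc32a1 (VIAAT), which loads GABA and glycine into vesicles, gave 0.31 (adjusted p = 0.0906), Ctns, the lysosomal cystine exporter, 0.21 (adjusted p = 0.125) and Slc25a18, a mitochondrial glutamate carrier, -0.18 (adjusted p = 0.175). Slc16a10 (TAT1), which releases aromatic amino acids and thyroid hormones, had 5.96 and 5.75 in DBP replicates 1 and 2 but 5.14 and 5.17 in replicates 3 and 4, against 5.23, 5.43, 5.28 and 5.12 in vehicle replicates 1 to 4. The change in DBP replicates 1 and 2 alone was 0.59 (adjusted p = 0.0243), against -0.11 with replicates 3 and 4 alone. Slc6a8, the creatine carrier left out of the families, gave -0.17 (95% interval -0.36 to 0.03).

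Genes of amino acid sensing, through GCN2 and ATF4 or through mTORC1, gave 0 calls among 28 measured of 31 listed, with 6 at an unadjusted p under 0.05, 3 higher and 3 lower (21.4%, against 19.1% of all genes). Eif2ak4, which encodes the sensor kinase GCN2, gave -0.23 (95% interval -0.37 to -0.08; adjusted p = 0.126), and Mtor -0.19 (adjusted p = 0.201). Atf4, the transcription factor that GCN2 signalling raises by translation, averaged 10.47 ± 0.032 after DBP and 10.62 ± 0.035 in vehicle (SD, n = 4 per group; -0.14, adjusted p = 0.201). Asns, asparagine synthetase, gave 0.19 (0.04 to 0.34; adjusted p = 0.185), Trib3 0.18 (adjusted p = 0.305) and Ddit3 -0.02 (-0.18 to 0.14). Of the 28 genes 9 were numerically higher and 19 lower (67.9% lower, against 43.2% of all genes). Most of the 28 had means above 7.41, the median over all named genes. Of all genes above that signal 55.1% were lower, and of those below it 31.3%. Sesn3, a stress-induced inhibitor of mTORC1, gave 0.18 (adjusted p = 0.168).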

How the data were processed

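Fetal testis RNA of 8 samples, 4 DBP and 4 vehicle, was measured on 1 Affymetrix rat array each. The deposited values are on a log2 scale. They come from RMA as run by the authors, per the submitters' processing notes. The sources used here do not state its version. Of 31099 probe sets 57 Affymetrix controls were set aside. Probe sets were named from the platform annotation: 20826 had 1 gene symbol, 436 several and 9780 none. Each of the 8 columns matched 1 sample and 0 pairs of arrays were identical. Groups were compared over all 31042 probe sets with limma 3.58.1 (R 4.3.3; linear model, empirical Bayes), 2-sided, with Benjamini-Hochberg adjustment and a threshold of 0.05; intervals are 95% intervals of that model. Tables and figures used Python 3.11.15, pandas 2.3.3 and matplotlib 3.10.9. On simulated arrays of 31042 probe sets, limma called 96 of 100 with a simulated log2 change of 1 and 76 of 100 with 0.5, none with its sign turned, and made 6 false calls. The simulated noise was independent between arrays and equal in both groups. It held no split within the DBP group, so these counts do not measure the error on the real arrays.

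Every member could be named. Values on every array are given for members with an unadjusted p under 0.05 and for that with the highest mean of each family, and for some others, chosen after their values were seen. Of the other lists, the 4 genes with the smallest unadjusted p and Atf4, Ddit3, Trib3, Asns and Slc6a8 are named, and Mtor, Slc16a10 and single cell type markers were added after their values were seen. The members and lists were chosen with earlier results of these data known. The alternatives were a signal filter, 2 rescalings, other moderation, replicate, RNA integrity and spike-in terms, array weights, subsets of arrays and other choices of probe set. The carriers Slc1a7, Slc6a12, Slc6a16, Slc6a19, Slc7a15, Slc36a4, Slc38a8, Slc38a11 and Slc43a3 were not analysed here.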

Additional observations from a re-analysis of the deposited data

Results flagged for a closer look

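In groups of 4 arrays, the highest or lowest array was marked where its gap to the nearest of the others was large for the group's range (above Dixon's 95% critical value). Of 104 groups of the 52 genes 6 were marked, and chance marks about 1 in 20. Slc36a1 was 5.55 on DBP replicate 3, against 5.19 to 5.22 on the other DBP arrays. Slc43a2 was 6.07 on DBP replicate 4, against 5.77 to 5.81 on the others, and 5.75 on vehicle replicate 2, against 5.66 to 5.67. Slc6a9 was 7.82 on DBP replicate 3, against 7.71 to 7.72. Slc38a10 was 8.63 on vehicle replicate 1, against 8.73 to 8.74, and Slc43a1 was 6.82 on vehicle replicate 3, against 7.07 to 7.11. None of these genes passed the threshold in any direction, and the 3 marks among DBP arrays all fell on replicates 3 and 4.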

How the results depend on the processing

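Over 21 alternatives the fall of Slc7a8 ranged from -0.72 to -0.59 and ended once, without moderation (adjusted p = 0.0859; range 0.00239 to 0.0859). That of Slc7a7 ranged from -0.41 to -0.36 and ended 3 times (adjusted p 0.00752 to 0.0572). The count of the 52 genes past the threshold was 1 without moderation (Slc7a7), 1 with the replicate block (Slc7a8; Slc7a7 -0.39, adjusted p = 0.0509), 1 to 2 with an array left out, 3 with the mean over the probe sets of a gene, which adds Slc6a6, and 10 with DBP replicates 3 and 4 alone, a subset added after seeing the data. Over all probe sets it was 331 (130 higher, 201 lower), 317 with arrays shifted to the same median (158 and 159), 74 without moderation, 175 with the replicate block, 577 with DBP replicates 1 and 2, 4129 with replicates 3 and 4, and 82 to 606 with an array left out. The labels do not say whether same-numbered arrays of the 2 groups belong together. Correlations of their deviations were -0.08 to 0.11, and 4 of 8 arrays correlated best with their own number, which cannot settle it with so few arrays. The other carriers gave 1 call (Slc15a2) with the signal filter, the median shift, quantile normalization, the RNA integrity term and array weights, 2 with the spike-in term and with DBP replicates 1 and 2 (Slc15a2 and Slc16a10), 1 with replicates 3 and 4 (Slc32a1), and 0 to 1 with an array left out. Sensing genes gave 0 calls, except 3 with DBP replicates 3 and 4 (Eif2ak4, Rptor and Trib3). The 21 alternatives were run gene by gene for 19 of the 52 genes. Among these, signs turned with the mean over probe sets for Slc6a17 (0.07) and Slc43a2 (-0.03), and with DBP replicates 1 and 2 for Slc7a6 (0.01). Of the other genes, Slc1a2 (-0.12), Slc1a4 (0.05), Slc38a3 (-0.03), Slc6a15 (0.09) and Slc7a12 (-0.04) also turned with DBP replicates 1 and 2. The second probe set of Slc6a6 ranged from -1.16 to -0.61, with adjusted p from 0.0142 to 0.2. The causes were not tested. Of the 52 genes 39 had means below the median over all named genes; no detection calls were used.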
